A study of Mus musculus with 24 samples.

Results

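The comparison described here set IL-1b-stimulated cortical neurons expressing AcP together with AcPb against IL-1b-stimulated cortical neurons expressing AcP alone. Its members were the 3 arrays of each group, 6 of the 24 arrays of the study, taken by the group named in the labels and read across every probe set other than the array's control probe sets. All cells were embryonic cortical neurons of genotype Il1rap-/-, which lack the gene of both accessory chains. The 4 groups compared below had 3 arrays each. They were AcP+AcPb and AcP neurons given IL-1b at 10 ng/ml for 4 h, and unstimulated AcP+AcPb and AcP neurons. The study's other groups were neurons expressing AcPb alone or CD25, a receptor chain unrelated to IL-1, with and without the same IL-1b. Those groups also had 3 arrays each. They entered the statistical fit behind every p-value and are quoted for some genes. How the receptor chains were introduced, the age of the embryos and the number of animals behind an array are not given in the sources used here. Separate cultures or animals for the replicate arrays are not recorded in the labels, so p-values measure the spread between these arrays, which may be technical.

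IL-1b, an inflammatory cytokine, binds the receptor Il1r1, which then pairs with the accessory protein AcP. The paired receptors recruit Myd88, Irak kinases and Traf6, and NF-kB and MAP kinase signalling then switches on chemokines, adhesion molecules and feedback inhibitors. AcPb is an isoform made from the same gene in the nervous system, with a different intracellular end. The comparison asks whether the level that genes reach under IL-1b differs when AcPb is present beside AcP.

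The array medians of the 6 arrays ran from 55.06 to 63.19 intensity units, and arrays correlated at 0.977 to 0.982 between the groups and at 0.978 to 0.983 within them. The median standard deviation (SD) of a probe set was 0.123 log2 units in stimulated AcP+AcPb and 0.115 in stimulated AcP neurons. The labels carry an array code, m23B for the 3 stimulated AcP+AcPb arrays and m21B for the 3 stimulated AcP arrays, so code and group cannot be told apart in any result below. Of the control AcP+AcPb arrays, 2 carry m22B and 1 carries m23B, and all control AcP arrays carry m21B.

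Il1rap, the gene deleted in these cells, had 108, 129 and 124 intensity units in stimulated AcP+AcPb arrays, against 141, 117 and 143 in stimulated AcP arrays, on its brightest probe set. The groups overlapped, and its 5 tested probe sets differed by -0.13 to 0.37 on the log2 scale with none called. An introduced coding sequence need not hold the stretch that a probe set reads, so these levels check no label. Il1r1, the signalling receptor, lay below or near 0 in all 6 arrays (-20.4 to -6.93 in AcP+AcPb and -6.42 to -1.15 in AcP) and was not tested. Il1rn, the gene of the receptor antagonist, had 84.6, 55.8 and 24.5 units in AcP+AcPb, against 67.9, 104 and 115 in AcP. Its groups overlapped, and the difference of -0.72 ± 0.29 on the log2 scale did not pass (adjusted p = 0.40), while its other probe set differed by 0.10. Values after ± are standard errors (SE) of limma's estimate unless SD is written, and log2 differences are of log2(value + 16), AcP+AcPb minus AcP.

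Neuronal marker genes were bright in both stimulated groups. Rbfox3, which encodes the neuronal nuclear antigen NeuN, averaged 4628 units in AcP+AcPb and 4900 in AcP. All 17 astrocyte markers on the array were also measurable, with Aqp4, a water channel of astrocytes, at 3160 and 3163 units, so astrocyte RNA was present beside neuronal RNA. The summed level of the astrocyte list ran from 35880 to 38950 units over the AcP+AcPb arrays and from 36050 to 38020 over the AcP arrays. Of 19 microglia and macrophage markers on the array 8 were tested, and Cx3cr1, Itgam, Aif1 and Tmem119 lay near or below 0 in both groups. The 8 summed to 803 to 900 units over the AcP+AcPb arrays and to 837 to 1124 over the AcP arrays. Among them Laptm5 averaged 123 and 173 units, Cd68 56.0 and 39.4 and Lyz2 51.5 and 41.5, in AcP+AcPb and AcP. In bulk RNA, fewer cells of a type and less RNA per cell cannot be told apart, and the arrays do not show which cells held a transcript.

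Inflammatory genes that IL-1b induces reached overlapping levels in the stimulated groups. A panel of 44 IL-1b-inducible genes, chosen with earlier results of these data known, had 43 members on the array and 39 past the filter on dim probe sets. By limma, 0 of the 39 were called at an adjusted p under 0.05, beside 10 of all 30468 tested probe sets (0.0328%), and 1 had an unadjusted p under 0.05, beside 10.2% of probe sets. The panel's median difference was -0.04, with 24 members below 0 and 15 above, and its range ran from -0.52 for Atf3 to 0.45 for Csf1. The median difference of all probe sets was 0.003. Csf1, a growth factor of macrophages, was the 1 of the 39 tested members whose groups did not overlap, with 412, 367 and 398 units in AcP+AcPb, against 253, 357 and 252 in AcP (0.45 ± 0.29, adjusted p = 0.63). Its further probe sets differed by 0.18, -0.05 and -0.06, and the last 2 had IL-1b responses of 2.32 and 1.19 in AcP, against -0.22 for the probe set whose values are given. Ccl20, Il6, Nos2 and Bcl3 were too dim to be tested.

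Among chemokines, Cxcl10, which attracts activated T cells, had 1998, 2246 and 3225 units in stimulated AcP+AcPb arrays, against 2348, 2831 and 2356 in stimulated AcP arrays. The AcP arrays lay inside the range of the AcP+AcPb arrays, and the difference was -0.04 ± 0.32 with a 95% interval from -0.70 to 0.63 (adjusted p = 0.98). In stimulated arrays of the other arms Cxcl10 averaged 20.0 ± 1.49 units with AcPb alone and 191 ± 11.7 with CD25, a receptor chain unrelated to IL-1 (SD, n = 3 each). Without IL-1b the same arms averaged 12.5 ± 6.7 and 199 ± 26.5 units (SD). Neither IL-1b response was called by limma (adjusted p = 0.76 with AcPb and 0.99 with CD25). Cxcl1, which attracts neutrophils, had 2573, 2626 and 3519 units in AcP+AcPb, against 3118, 4005 and 3263 in AcP. Its groups overlapped and differed by -0.26 ± 0.25 (interval -0.77 to 0.26), with its further probe sets at -0.19 and -0.23. Ccl2, which attracts monocytes, had 620, 743 and 1224 units in AcP+AcPb, against 761, 986 and 646 in AcP, a difference of 0.07 ± 0.21 (interval -0.36 to 0.51). Cxcl2 differed by -0.13, Ccl7 by -0.14 and Cxcl5 by 0.11, and each had overlapping groups.

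The promoters of Cxcl10 and Cxcl1 are shown because IL-1b raised both genes in both arms. They were read from RefSeq (GRCm38.p6), from 250 bases before to 50 bases after the start, 5′ to 3′ on the gene's strand, and capitals mark the 50 bases after the start. Cxcl10 is at chr5:92348840-92349139 on the minus strand and Cxcl1 at chr5:90890995-90891294 on the plus strand.
Cxcl10: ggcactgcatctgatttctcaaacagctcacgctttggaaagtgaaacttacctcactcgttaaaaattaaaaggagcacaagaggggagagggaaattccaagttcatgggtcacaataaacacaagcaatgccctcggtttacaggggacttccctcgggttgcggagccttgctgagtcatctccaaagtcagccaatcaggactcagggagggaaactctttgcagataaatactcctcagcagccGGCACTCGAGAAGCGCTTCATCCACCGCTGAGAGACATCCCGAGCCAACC
Cxcl1: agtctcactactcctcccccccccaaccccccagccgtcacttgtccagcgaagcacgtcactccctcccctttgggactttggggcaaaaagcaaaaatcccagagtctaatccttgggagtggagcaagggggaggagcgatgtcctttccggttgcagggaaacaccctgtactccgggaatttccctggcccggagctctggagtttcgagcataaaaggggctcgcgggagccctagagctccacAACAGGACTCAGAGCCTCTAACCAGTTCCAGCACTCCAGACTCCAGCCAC

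Feedback inhibitors of NF-kB, which are themselves NF-kB targets, included the panel gene with the smallest p. Nfkbia, the inhibitor IkB-alpha, had 4112, 4136 and 4962 units in AcP+AcPb, against 4739, 5817 and 5061 in AcP. One AcP+AcPb array lay within the AcP range, and the difference of -0.24 ± 0.09 had an unadjusted p of 0.011 and an adjusted p of 0.34. Its other 4 probe sets differed by -0.19, -0.11, -0.06 and 0.09. Nfkbiz, an atypical IkB protein of the nucleus, had 419, 449 and 622 units in AcP+AcPb, against 499, 653 and 516 in AcP (-0.17 ± 0.18). Nfkbie differed by 0.06 ± 0.20 and Tnfaip3, a ubiquitin-editing inhibitor, by -0.19 ± 0.41, a wide estimate.

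Defence and interferon-inducible genes overlapped between the groups too. Lcn2, an iron-scavenging protein, had 375, 438 and 758 units in AcP+AcPb, against 544, 832 and 491 in AcP (-0.27 ± 0.32). Ptx3, a soluble pentraxin, had 712, 892 and 1679 in AcP+AcPb, against 884, 1334 and 751 in AcP (0.09 ± 0.27). Gbp2, an interferon-inducible GTPase, had 225, 296 and 519 in AcP+AcPb, against 335, 416 and 291 in AcP (-0.07 ± 0.27). In all 3 genes the groups overlapped and array 3 of AcP+AcPb and array 2 of AcP were the highest of their group. The metalloreductase Steap4 differed by 0.14 ± 0.31, Gbp3 by 0.19 ± 0.25 and the GTPase Irgm1 by 0.09 ± 0.12.

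Transcription factors and adhesion molecules had overlapping groups as well. Atf3, a stress-inducible factor and the lowest of the tested panel, had 16.1, 33.0 and 87.1 units in AcP+AcPb, against 62.3, 71.0 and 54.8 in AcP (-0.52 ± 0.30, interval -1.16 to 0.11). Cebpd, an inflammatory factor of the C/EBP family, had 535, 598 and 827 in AcP+AcPb, against 671, 1104 and 651 in AcP (-0.28 ± 0.26). Ier3, an early response gene, had 171, 228 and 299 in AcP+AcPb, against 254, 419 and 246 in AcP (-0.37 ± 0.18, adjusted p = 0.49). In all 3 the groups overlapped. Icam1, which binds leukocyte integrins, had 191, 301 and 377 in AcP+AcPb, against 269, 333 and 220 in AcP (0.05 ± 0.30), and Vcam1 differed by 0.05 ± 0.08.

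**Figure D1:**
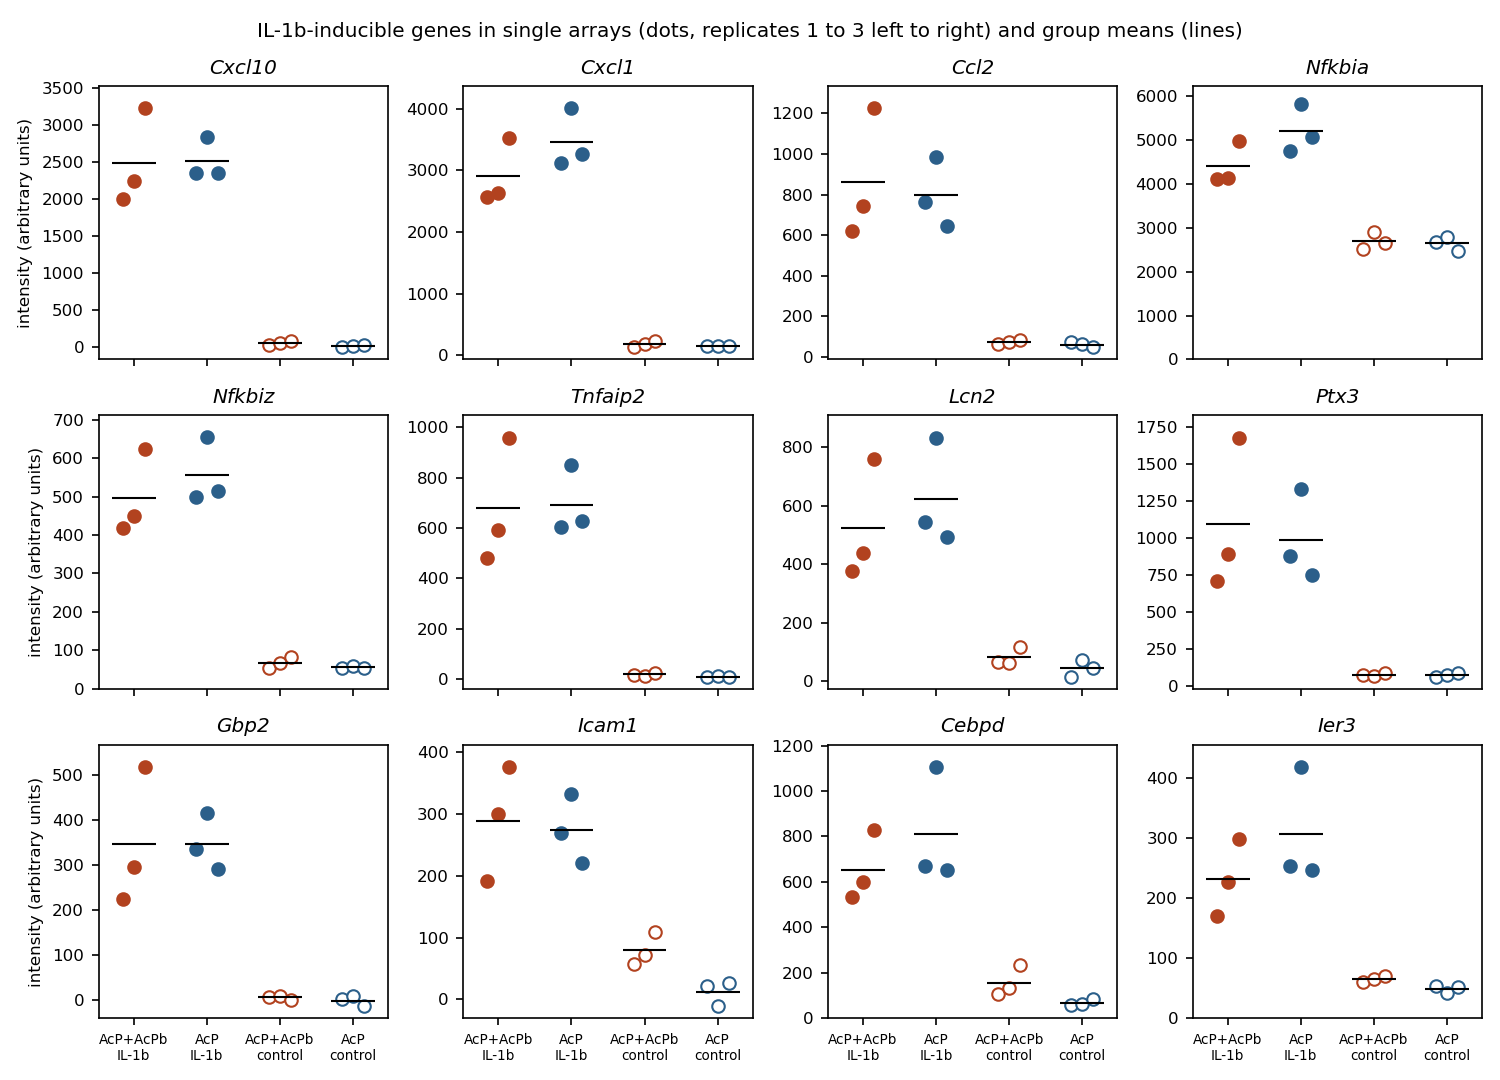
Intensity of 12 IL-1b-inducible genes (y axis, arbitrary units, linear, each panel with its own scale) in single arrays (dots) and group means (lines) of stimulated AcP+AcPb, stimulated AcP, control AcP+AcPb and control AcP neurons. The stimulated groups overlap in every panel, as for Cxcl10 with 1998 to 3225 units in AcP+AcPb and 2348 to 2831 in AcP.

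Single arrays moved these genes together. Of the panel, 29 genes had a called IL-1b rise in at least 1 of the 2 arms, 26 in AcP+AcPb and 29 in AcP. Of all probe sets 0.217% had a called rise in AcP+AcPb and 0.302% in AcP. Array 3 of stimulated AcP+AcPb was the highest of its group for 27 of the 29, beside 30% of all probe sets, and array 2 of stimulated AcP was the highest for 24, beside 31.84%. The mean log2 level of the 29 was 8.14, 8.35 and 8.82 in the AcP+AcPb arrays and 8.39, 8.70 and 8.41 in the AcP arrays. Leaving out 1 array moved the median of the 39 tested panel genes. It was 0.08, -0.01 and -0.18 without AcP+AcPb array 1, 2 and 3, and -0.08, 0.06 and -0.08 without AcP array 1, 2 and 3. The sign of the median therefore depended on which arrays entered.

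For these 29 genes the fit gives the size of a difference that its pooled spread leaves possible. The 95% interval stayed within 2-fold either way for 28 of 29, Atf3 being the exception, and within 1.5-fold for 14. Over all probe sets 89.08% had an interval within 2-fold. None of the 29 had groups that did not overlap, beside 9.54% of all probe sets lying higher and 11.5% lower without overlap in AcP+AcPb. The spread is pooled over all 8 groups, and for some of these genes the stimulated arrays varied more than their controls. Ptx3 averaged 1094 ± 514.5 and 989.5 ± 305.3 units (SD) in stimulated AcP+AcPb and AcP. Its controls averaged 80.2 ± 7.09 and 77.3 ± 14.2 (SD). For such genes the pooled spread may be too small and the intervals too narrow. The 2-fold bound therefore holds only under that pooled spread, and it does not show that the levels were equal.

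**Figure D2:**
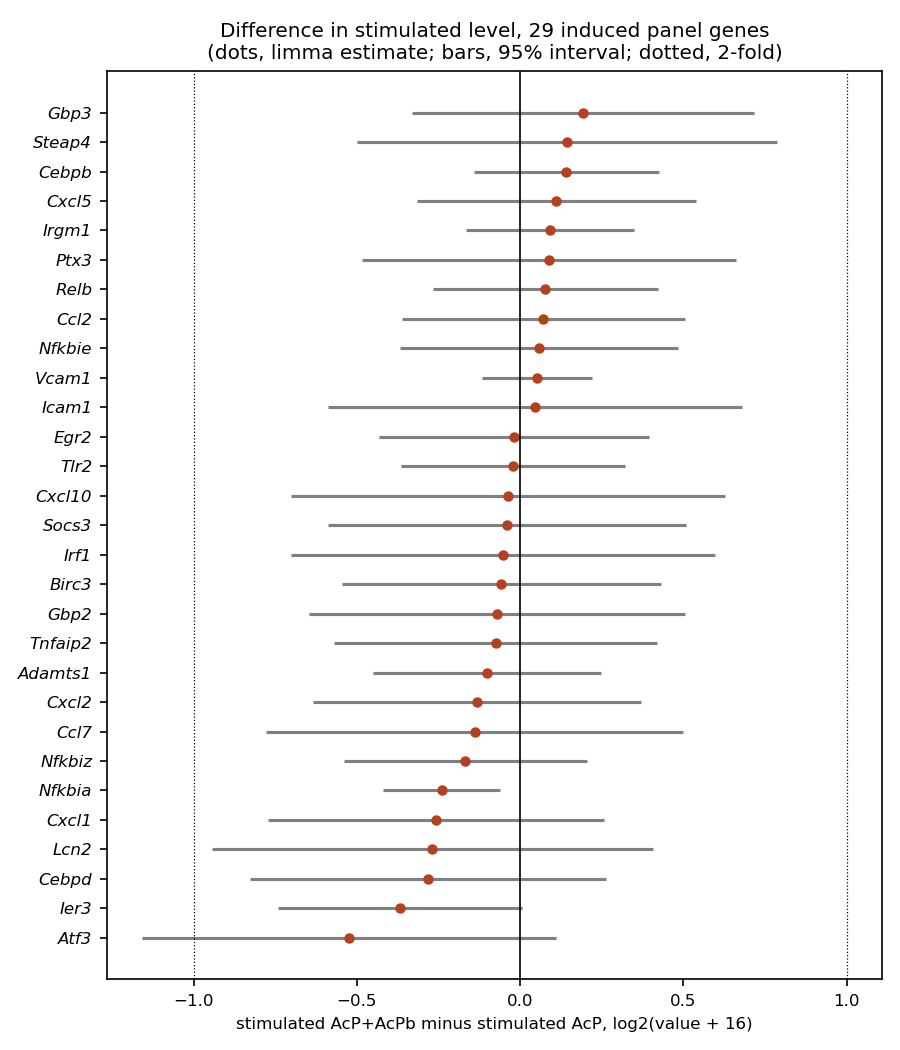
Stimulated AcP+AcPb minus stimulated AcP in log2(value + 16) (x axis) for the 29 induced panel genes (y axis), with limma's estimate (dots), 95% intervals from the fit to all 24 arrays (bars) and 2-fold bounds (dotted lines). Estimates run from -0.52 for Atf3 to 0.19 for Gbp3, and only the interval of Nfkbia lies clear of 0.

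Some panel genes had higher levels in unstimulated AcP+AcPb than in unstimulated AcP arrays. Cxcl10 had 24.3, 56.4 and 82.3 units in control AcP+AcPb arrays, against -2.38, 13.7 and 29.2 in control AcP arrays, which overlapped (log2 difference 1.25 ± 0.32, adjusted p = 0.13). Icam1 had 56.5, 71.7 and 109 in control AcP+AcPb, against 22.05, -11.5 and 26.8 in control AcP, a difference of 1.65 ± 0.30 that was called (adjusted p = 0.034). Irgm1 was called as well, by 0.66 ± 0.12 (adjusted p = 0.036), and these were the 2 panel genes called among 55 probe sets (0.181%) in the unstimulated comparison. Cebpd had 106, 132 and 233 units in control AcP+AcPb, against 57.5, 62.6 and 84.6 in control AcP, without overlap (0.98 ± 0.26, adjusted p = 0.15). Unstimulated levels varied in the other arms too. Icam1 averaged 16.5 units in AcPb controls and 206 in CD25 controls, Irgm1 107 and 216, and Cebpd 76.9 and 824. The median unstimulated difference of the 29 genes was 0.24. All 29 were chosen partly for a rise over the control AcP arrays, which favours genes low there, so this median is a description.

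Icam1 rose over its controls by 1.67 in AcP+AcPb and by 3.27 in AcP, a difference of -1.60 ± 0.43 (adjusted p = 0.71). One of its control AcP values was -11.5 units. The AcP rise of Icam1 and its unstimulated difference therefore depend on the floor at 0 and the added 16. Cebpd rose by 2.00 in AcP+AcPb and by 3.26 in AcP, a difference of -1.27 ± 0.37 (adjusted p = 0.72). Of the 29, 24 had a difference of responses below 0, beside 47.04% of all probe sets. Their median rise was 1.63 in AcP+AcPb and 2.21 in AcP. None of the 29 was called in this difference of responses, where limma called 1 of 30468 probe sets (0.00328%). All 29 had a called rise in AcP and 26 in AcP+AcPb, and that choice favours genes with a larger AcP response, so these differences are descriptions.

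Across all genes few probe sets separated the stimulated groups. Limma called 10 of 30468, 6 higher (0.0197%) and 4 lower (0.0131%) in AcP+AcPb. The split was 7 higher and 6 lower after quantile normalization and 1 higher and 3 lower after centring of array medians. At an unadjusted p under 0.05 there were 1405 higher (4.61%) and 1709 lower (5.61%). The count of 10 rested on single arrays, being 11, 10 and 2 without AcP+AcPb array 1, 2 and 3, and 0, 3 and 3 without AcP array 1, 2 and 3. It was 0 with the 12 arrays of both arms alone in the fit, 5 with the 6 stimulated arrays alone (0 of them among the 10), and 42 with array weights, which held all 10.

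Of the genes higher in AcP+AcPb, Syn3, a synapsin of synaptic vesicles, had 1208, 973 and 1024 units, against 696, 642 and 690 in AcP (0.64 ± 0.10, adjusted p = 0.036). Its controls, at 1010, 946 and 1033 in AcP+AcPb and 963, 1031 and 939 in AcP, lay near the stimulated AcP+AcPb level, so the stimulated AcP arrays were the low ones of the 12. A further Syn3 probe set differed by -0.03 and was not called. B3galt5, a galactosyltransferase that builds glycan chains, had 111, 70.8 and 100 units in AcP+AcPb, against 37.6, 37.3 and 28.99 in AcP (1.11 ± 0.18, adjusted p = 0.036), with its further probe sets uncalled at 0.31 and 0.54. Septin10, a GTP-binding cytoskeletal protein, had 227, 198 and 228 in AcP+AcPb, against 153, 137 and 140 in AcP (0.55 ± 0.09, adjusted p = 0.046). None of the 3 had overlapping groups. Each lost its call without AcP+AcPb array 1 or 3 and without any of the AcP arrays. Over the alternatives the adjusted p ran from 0.011 to 0.24 for Syn3, from 0.02 to 0.24 for B3galt5 and from 0.012 to 0.26 for Septin10.

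Of the genes lower in AcP+AcPb, Abca2, a lipid transporter, had 19.1, 4.26 and 39.5 units, against 129, 115 and 133 in AcP (-2.06 ± 0.33, adjusted p = 0.036). Its controls had 113, 113 and 120 units in AcP+AcPb and 121, 74.4 and 81.9 in AcP. The stimulated AcP+AcPb arrays were thus the low ones of these arms. A lower mean with IL-1b was not particular to AcP+AcPb. Stimulated arrays averaged 69.9 units with AcPb alone and 59.4 with CD25, against 118 and 117 in their controls. Neither of these responses was called by limma (adjusted p = 0.55 with AcPb and 0.88 with CD25). Pde2a, a phosphodiesterase of cyclic nucleotides, had 462, 491 and 475 in AcP+AcPb, against 785, 787 and 832 in AcP (-0.73 ± 0.11, adjusted p = 0.036), with further probe sets uncalled at -0.29 and -0.06. Gpsm1, a modulator of G-protein signalling, had 903, 915 and 852 in AcP+AcPb, against 1172, 1211 and 1246 in AcP (-0.44 ± 0.07, adjusted p = 0.036), with further probe sets at -0.05 and 0.05. In control arrays Gpsm1 had 866, 867 and 842 units in AcP+AcPb and 922, 1019 and 918 in AcP. The stimulated AcP arrays were thus the high ones of these arms. The IL-1b response of Gpsm1 was 0.34 in AcP (adjusted p = 0.035 by limma) and 0.05 in AcP+AcPb, where it was not called. Stimulated arrays averaged 844 units with AcPb alone and 900 with CD25. Gnl3l, a nucleolar GTPase, had 1627, 1619 and 1611 in AcP+AcPb, against 1997, 1993 and 2087 in AcP (-0.32 ± 0.05, adjusted p = 0.046), with its further probe set at 0.20. The groups of all 4 did not overlap. Gpsm1 and Gnl3l lost their calls without any 1 of the 6 arrays, Abca2 without any but AcP+AcPb array 3 and Pde2a without any but AcP+AcPb array 2. Over the alternatives the adjusted p ran from 0.013 to 0.27 for Abca2, from 0.0053 to 0.16 for Pde2a, from 0.01 to 0.23 for Gpsm1 and from 0.011 to 0.26 for Gnl3l.

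The other 3 called probe sets were dim, under 50 units in the mean of both groups, and are named because they complete the count, chosen after their values were seen. Bik, a pro-apoptotic member of the BCL2 family, had 62.7, 29.2 and 42.5 units in AcP+AcPb, against -14.6, 0.62 and 4.49 in AcP, so its log2 difference of 1.75 ± 0.30 depends on the added 16 (adjusted p = 0.046), and its further probe set differed by 0.01. Pdrg1, a gene regulated by p53 and DNA damage, had 24, 46.6 and 56.3 units in AcP+AcPb, against 8.55, 10.8 and 6.75 in AcP (1.20 ± 0.20, adjusted p = 0.046). It was also called without IL-1b, at 1.55 (adjusted p = 0.0047), and its 3 brighter probe sets differed by -0.10, -0.07 and 0.03. A probe set with no gene name had 45.8, 41.1 and 35.6 units in AcP+AcPb, against 3.75, 4.31 and 7.03 in AcP (1.43 ± 0.18, adjusted p = 0.0086). Its controls had 39.6, 38.8 and 43.0 units in AcP+AcPb and 25.6, 56.1 and 38.1 in AcP, so the stimulated AcP arrays were the low ones of the 12. Its IL-1b response was -1.38 in AcP (adjusted p = 0.00036 by limma) and 0.006 in AcP+AcPb. No further probe set of any called gene passed the test.

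**Figure D3:**
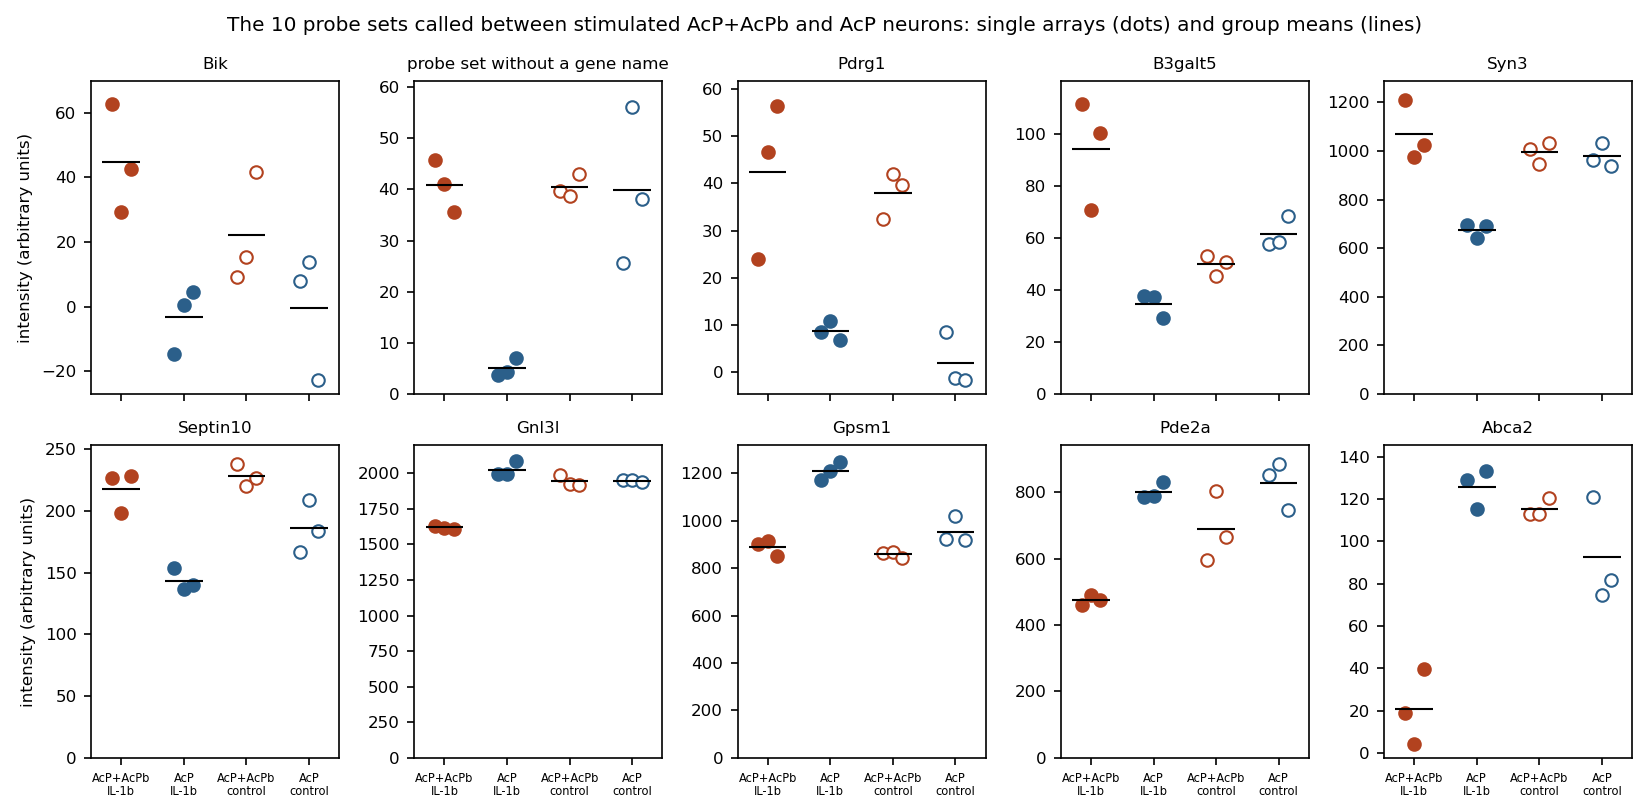
Intensity (y axis, arbitrary units, linear, each panel with its own scale) of the 10 called probe sets in single arrays (dots) and group means (lines) of stimulated AcP+AcPb, stimulated AcP, control AcP+AcPb and control AcP neurons. The stimulated groups lie apart in each panel, and the group that stands away from the other 3 shown is stimulated AcP+AcPb for Abca2 and stimulated AcP for Syn3.

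None of these 10 was called in the difference of responses (adjusted p = 0.27 for B3galt5 and 0.31 for Abca2). Across the 30468 probe sets the stimulated difference correlated with the unstimulated one with a Pearson coefficient of 0.225 and a Spearman coefficient of 0.27. This is a description across probe sets. The 2 differences share arms, and all their AcP arrays carry m21B. All stimulated AcP+AcPb arrays carry m23B, but 2 of the 3 control AcP+AcPb arrays carry m22B. For Coq6, an enzyme of ubiquinone synthesis, the stimulated arrays had 81.9, 125 and 102 units in AcP+AcPb, against 156, 166 and 178 in AcP (-0.63 ± 0.11, adjusted p = 0.068). Its control arrays had 87.6, 82.3 and 73.6 in AcP+AcPb, against 179, 165 and 140 in AcP (-0.86, adjusted p = 0.0047). Pclaf, a replication-associated factor, had 207, 173 and 174 in AcP+AcPb, against 287, 283 and 283 in AcP when stimulated (-0.59 ± 0.12, adjusted p = 0.12), and differed by -0.82 without IL-1b (adjusted p = 0.0089).

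**Figure D4:**
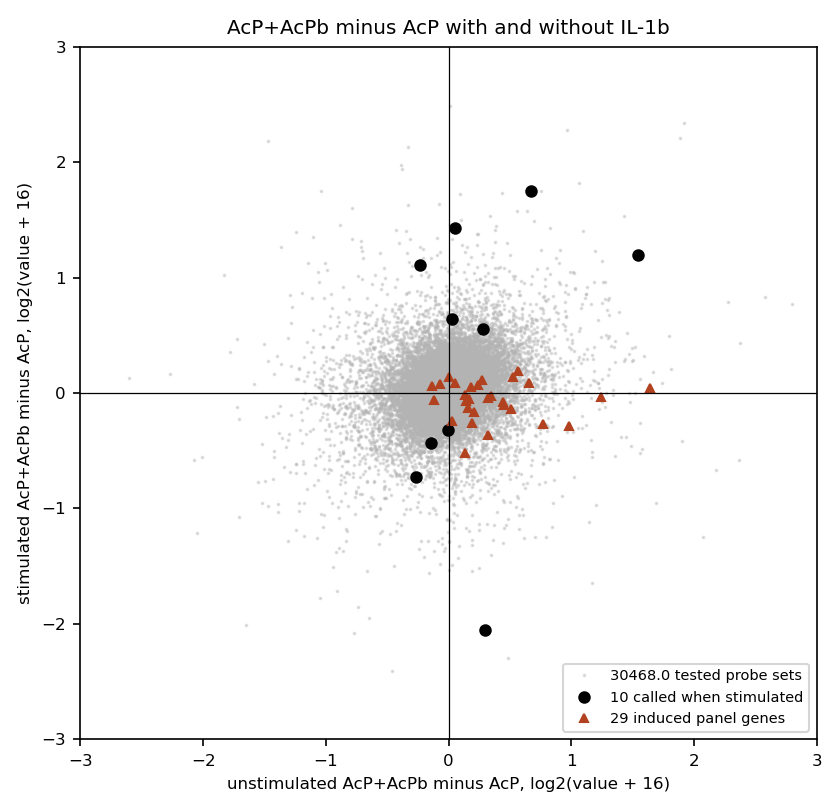
Log2 difference between AcP+AcPb and AcP arrays with IL-1b (y axis) against that without (x axis), in log2(value + 16), for 30468 probe sets (grey), the 10 called when stimulated (black) and the 29 induced panel genes (triangles). The panel genes lie near 0 on the y axis (median -0.04) and mostly right of 0 on the x axis (median 0.24).

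Among genes that did not pass the test but had the smallest p and groups that did not overlap, Hsd17b7, an enzyme of cholesterol synthesis, had 370, 390 and 318 units in AcP+AcPb, against 517, 572 and 523 in AcP (-0.56 ± 0.10, adjusted p = 0.051). Its further probe sets differed by -0.25, -0.14 and 0.18. Usp46, a deubiquitinase, had 1520, 1230 and 1199 in AcP+AcPb, against 1670, 1829 and 1746 in AcP (-0.41 ± 0.07, adjusted p = 0.054), and its further probe set differed by 0.09. Pkm, a glycolytic enzyme, had 2481, 2605 and 2602 in AcP+AcPb, against 3239, 3495 and 3357 in AcP (-0.39 ± 0.08, adjusted p = 0.097). Tgfb2, a growth factor, had 67.1, 64.7 and 63.2 in AcP+AcPb, against 41.6, 43.2 and 38.0 in AcP (0.51 ± 0.10, adjusted p = 0.087), and its further probe sets differed by 0.31, 0.21 and 0.01. Ccnt2, a cyclin of transcription elongation, had 204, 159 and 190 in AcP+AcPb, against 121, 117 and 121 in AcP (0.56 ± 0.10, adjusted p = 0.084), and its further probe sets differed by 0.20, -0.08, -0.03 and -0.003. Ppif, a mitochondrial cyclophilin, differed by -0.52 on this probe set and by 0.52 on another, neither called, so its probe sets disagreed in sign.

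Many members of the synaptic vesicle and lipid lists lay lower in AcP+AcPb, 1 of them past the test on its brightest probe set. Of all 14234 genes, on the brightest probe set of each, 15.3% lay lower without overlap in AcP+AcPb and 7.43% higher, and 55.2% had a difference below 0. The shares were 12.9% lower and 8.14% higher after quantile normalization and 22.9% lower and 3.33% higher after centring of array medians, which moved the median of all genes to -0.085 from -0.018. On these probe sets 0.0211% of the genes were called and 11.1% had an unadjusted p under 0.05. Of 24 synaptic vesicle genes 12 lay lower without overlap and 0 higher, with 0 called on these probe sets and 4 at an unadjusted p under 0.05. Their median was -0.10, and after quantile normalization 7 lay lower without overlap with a median of -0.06, and after centring of array medians 16 with a median of -0.17. Syngr1, a synaptic vesicle protein, had 1835, 1748 and 1787 units in AcP+AcPb, against 2072, 2254 and 2234 in AcP (-0.29 ± 0.09, adjusted p = 0.28), with its further probe set at 0.06. Syn1, the synapsin that ties vesicles to actin, had 2500, 2440 and 2351 in AcP+AcPb, against 2719, 2936 and 3064 in AcP (-0.26 ± 0.09, adjusted p = 0.32). Both groups of values lay apart, and Syn3 of the same family was called in the opposite direction on the probe set described above.

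Of 21 cholesterol and lipid genes 11 lay lower without overlap, Abca2 among them as the single call, and the median was -0.11. The count was 9 after quantile normalization and 13 after centring. Scd1, a desaturase of fatty acid synthesis, had 2302, 2065 and 2144 units in AcP+AcPb, against 2561, 2612 and 2801 in AcP (-0.29 ± 0.09, adjusted p = 0.28), with its further probe set at 0.10. Of 23 neuron markers 8 lay lower without overlap and 2 higher, with a median of -0.06 and 0 called. At an unadjusted p under 0.05 by limma 0 were lower and 1 was higher, beside 11.1% of all genes in either direction. The counts without overlap were 5 lower and 3 higher after quantile normalization and 9 lower and 0 higher after centring, with medians of -0.04 and -0.13. Nefm, a neurofilament subunit, had 926, 665 and 669 in AcP+AcPb, against 1008, 1036 and 999 in AcP (-0.44 ± 0.22, adjusted p = 0.51). Of 29 ion channel genes 22 lay below 0, with a median of -0.08 and 0 called, and 6 lay lower and 1 higher without overlap. The summed level of the neuron list ran from 87160 to 89130 units in AcP+AcPb and from 88280 to 94020 in AcP, and the part of these levels in the other lists was not tested.

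Genes of IL-1 signalling upstream of NF-kB differed in both directions, none past the test. Of 14 tested members 7 lay below 0 and 7 above, with a median of 0.01, and 3 lay lower and 1 higher without overlap, beside 15.3% and 7.43% of all genes. After quantile normalization 1 lay lower and 1 higher, and after centring 4 lower and 0 higher. Traf6, the ubiquitin ligase of the receptor complex, had 49.2, 50.2 and 43.5 units in AcP+AcPb, against 78.9, 73.7 and 70.3 in AcP, without overlap (-0.51 ± 0.12, unadjusted p = 0.00047, adjusted p = 0.16). Its further probe sets differed by 0.11 and 0.17. Myd88, the adaptor, had 254, 192 and 244 in AcP+AcPb, against 218, 235 and 128 in AcP (0.26 ± 0.41).

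Among other immune genes Ccl9, a chemokine outside the panel, had 176, 92.1 and 108 units in AcP+AcPb, against 63.1, 54.6 and 38.3 in AcP, without overlap (1.03 ± 0.28, unadjusted p = 0.0019, adjusted p = 0.23). Of the 20 tested chemokines 11 lay above 0 and 0 were called, with 2 at an unadjusted p under 0.05, near the 11.1% of all genes. Nfkbib, another IkB inhibitor, had 222, 287 and 234 in AcP+AcPb, against 347, 360 and 325 in AcP (-0.46 ± 0.14, adjusted p = 0.28), and of 20 tested NF-kB genes 0 were called, with 2 at an unadjusted p under 0.05, again near that share. Nr4a1, an immediate early nuclear receptor, had 431, 402 and 473 in AcP+AcPb, against 668, 644 and 753 in AcP (-0.64 ± 0.22, adjusted p = 0.33). The interferon-response list had a median of 0.06 and 0 of 21 called, and the median was 0.01 after quantile normalization and -0.003 after centring.

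Gfap, the intermediate filament of astrocytes, had 615, 621 and 992 units in stimulated AcP+AcPb, against 620, 544 and 622 in stimulated AcP (0.28 ± 0.29, adjusted p = 0.78). The groups overlapped on this probe set. Its further probe sets, at 0.40 and 0.28, were uncalled but lay higher in AcP+AcPb without overlap, as did 9.54% of all probe sets. Without IL-1b the first Gfap probe set had 1100, 1187 and 1794 in AcP+AcPb, against 424, 340 and 682 in AcP, a called difference of 1.49 (adjusted p = 0.046). The astrocyte list had a median stimulated difference of 0.02, which was 0.04 after quantile normalization and -0.05 after centring.

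**Figure D5:**
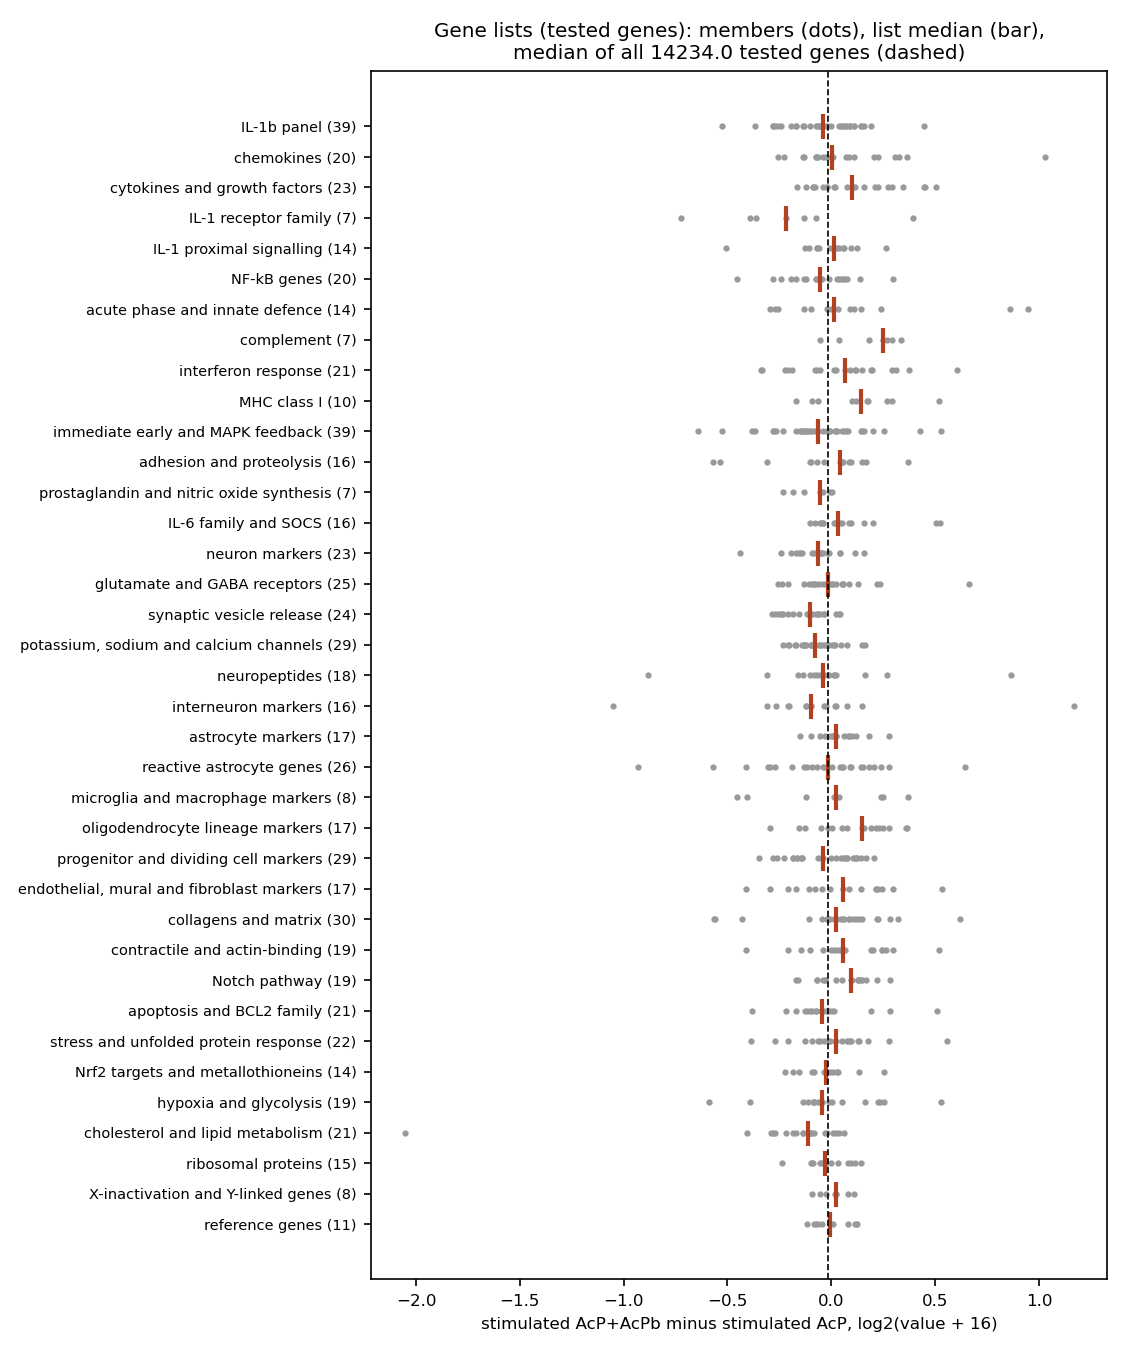
Stimulated AcP+AcPb minus stimulated AcP in log2(value + 16) (x axis) for the tested members (dots) of each gene list (y axis, number tested in brackets), with the list median (bar) and the median of all 14234 genes at -0.018 (dashed). The list medians lie between -0.22 for the IL-1 receptor family and 0.25 for complement, each of 7 genes, and the far-left dot is Abca2.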

How the data were processed

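Gene expression was measured on 24 one-colour Affymetrix mouse arrays, 3 in each of 8 groups taken from the labels. Per the labels' protocols, RNA was purified on columns and labelled with biotin (Eberwine). The deposited values are linear intensity per probe set, and 16.62% to 17.77% of an array's values lay below 0 on the 6 arrays compared. The sources used here do not give how the authors summarised and scaled the probes. No detection calls were used. Precision is limited by the number of arrays.

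After leaving out 40 control probe sets, 45037 remained, of which 34945 had 1 gene symbol, 932 several and 9160 none in the annotation supplied. Symbols were matched to RefSeq names (GRCm38.p6) through Entrez IDs for 34741 probe sets, with 0 changed. Negative values were set to 0, 16 was added and log2 taken. Fold changes on this scale understate the change of dim genes. Probe sets above the 40th percentile on at least 3 arrays were tested, 30468 in all, and 14569 were not.

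Limma (version 3.58.1, R 4.3.3) was fitted to all 24 arrays with 8 group means (16 residual and 1.94 prior degrees of freedom), with Benjamini-Hochberg adjustment over all tested probe sets and calls at an adjusted p under 0.05, two-sided. With 3 arrays against 3 an exact permutation test cannot give a p under 0.1, and none was used. The code was tested on simulated data. Gene lists are described by counts and medians on each gene's probe set with the highest mean, with no test.

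Named genes were up to 15 higher and 15 lower among called probe sets with non-overlapping arrays and a mean of at least 50 in the higher group, filled by the smallest p among uncalled ones under the same conditions. The panel, up to 4 members a list by size of difference, and Il1rap, Il2ra, Il1r1, Il1r2 and Il1rn completed them, and not every gene so named is printed. Further list members appear as counts. The comparison, the panel and the lists were chosen with earlier results of these data known. The deviations of arrays with the same replicate number correlated at 0.028, 0.038 and -0.019 between the stimulated groups, so the numbers were not taken as pairs. Alternatives changed the added constant, floor, scaling, dim filter, unit, arrays in the fit, weights, variance prior, blocks and single arrays.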

Additional observations from a re-analysis of the deposited data

Results flagged for a closer look

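Lsm7, a member of the Lsm ring that binds RNA in decay and splicing, was the 1 probe set whose difference between AcP+AcPb and AcP itself differed between stimulated and unstimulated arrays, by 0.79 ± 0.10 on the log2 scale (adjusted p = 0.0051). Stimulated arrays had 667, 677 and 753 units in AcP+AcPb, against 776, 765 and 770 in AcP, a difference of -0.14 ± 0.07 that was not called. Unstimulated arrays had 298, 334 and 344 units in AcP+AcPb, against 652, 574 and 677 in AcP, a called difference of -0.93 (adjusted p = 1.9e-06). The 3 unstimulated AcP+AcPb arrays were the low ones, 2 with the array code m22B and 1 with m23B. The call on the difference was lost after centring of array medians (adjusted p = 0.27) and with the 12 arrays of both arms alone in the fit (adjusted p = 0.59).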

How the results depend on the processing

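The count of 10 probe sets called between stimulated AcP+AcPb and AcP was 4 after centring of array medians, 5 with the 6 stimulated arrays, 0 with the 12 arrays of both arms, 42 with array weights, 25 with an intensity trend and robust prior and 6 with the array code as a random block. With 1 array left out it ran from 0 to 11. The unstimulated count of 55 was 24 after centring, 34 with 1 probe set a gene, 4 with 12 arrays and 1 with array weights, and ran from 10 (without AcP+AcPb control array 2) to 271 (without AcP control array 3). The difference of responses, with 1 call, had 0 after centring and with 12 arrays, and 1 to 7 with 1 array left out. With the replicate number as a block the stimulated count was 1, the unstimulated count 68 and the difference 1. As the numbers do not pair the arrays, this says nothing of pairs. The panel median of -0.039 lay between -0.177 and 0.082, and none of its 39 probe sets was called under any alternative run. No named difference that was called under any setting changed sign, and of 193 uncalled named probe sets 19 gained a call under some alternative. The causes of these shifts were not tested. No depth or detection call was used, so dim genes rest on the floor and the added 16.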

Other observations

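No antigen presentation gene passed the test between stimulated AcP+AcPb and AcP neurons. Of 10 tested MHC class I genes 7 lay above 0 with a median log2 difference of 0.14 and 0 called, none at an unadjusted p under 0.05, beside 11.1% of all genes. Of the 10, 1 lay higher without overlap, beside 7.43% of all genes, and 0 did after quantile normalization. The median was 0.13 after quantile normalization and 0.08 after centring of array medians. Of 23 cytokine and growth factor genes 15 lay above 0, with a median of 0.10 and 0 called. The median was 0.033 after quantile normalization, with 13 above 0, and 0.032 after centring. Inhba, a subunit of activin, had 392, 451 and 393 units in stimulated AcP+AcPb, against 314, 269 and 310 in stimulated AcP (0.45 ± 0.16, adjusted p = 0.34). Its control arrays ran the other way, with 286, 238 and 242 units in AcP+AcPb, against 420, 362 and 347 in AcP.

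Npy, a neuropeptide of cortical interneurons, had 649, 668 and 676 units in stimulated AcP+AcPb, against 844, 809 and 834 in stimulated AcP, without overlap (-0.31 ± 0.09, adjusted p = 0.23). Of 16 interneuron markers 6 lay lower without overlap and 1 higher, beside 15.3% and 7.43% of all genes, with a median of -0.10 and 0 called. After quantile normalization 5 lay lower with a median of -0.07, and after centring 8 with a median of -0.165. The sodium channel subunit Scn3b had 1829, 1846 and 1821 units in stimulated AcP+AcPb, against 2021, 2299 and 2039 in stimulated AcP (-0.21 ± 0.06, adjusted p = 0.28), and its other probe set differed by 0.22 in the opposite direction. Cd68, a lysosomal protein of macrophages, had 51.7, 50.5 and 65.8 units in stimulated AcP+AcPb, against 41.4, 38.3 and 38.6 in stimulated AcP (0.37 ± 0.11, adjusted p = 0.26). Its list went both ways. Of 8 tested microglia and macrophage markers 2 lay lower and 2 higher without overlap, beside 15.3% and 7.43% of all genes. Their median was 0.025 with 0 called, and -0.036 after quantile normalization. Laptm5 lay lower without overlap by -0.45, with its further probe sets at 0.47, 0.13 and -0.38.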
